A study of Mus musculus with 8 samples.

Results

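The p53 gene Trp53, its negative regulator Mdm2, the p53 target genes Cdkn1a, Ccng1 and Phlda3, the Gadd45 family (Gadd45a, Gadd45b and Gadd45g) and the kinase gene Plk2 were followed in dopaminergic neurons of mice given the neurotoxin MPTP. These 9 genes were taken by symbol from a table of counts for 21761 genes, and all 9 were abundant enough to be among the 15999 genes tested. Translating ribosome affinity purification, which pulls down tagged ribosomes with the RNA they carry, had been applied to midbrain dopaminergic neurons of C57BL/6 mice, so each value is a level of ribosome-bound RNA. One group of 4 libraries came from mice injected intraperitoneally once a day with MPTP-HCl (30 mg/kg free base, 5 daily injections) and the other group of 4 from mice injected with saline on the same schedule. In both groups the time after the last injection was 4 days. The sources used here do not give the age and sex of the mice, the promoter that drives the ribosome tag or whether animals were pooled. It is not stated that each replicate is its own animal, and the p-values therefore reflect the spread among these libraries alone, which may be technical. The protocol covers RNA from the substantia nigra and the ventral tegmental area together or apart. The deposited table carries the tag SN in its name, and the sample labels name no region.

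The p53 protein is a transcription factor that is held low by Mdm2, a ubiquitin ligase that marks it for degradation, and that is stabilised when the kinases Atm and Atr sense broken or stalled DNA. It then switches on genes that stop the cell cycle (Cdkn1a, which encodes the cyclin-dependent kinase inhibitor p21), dampen survival signalling (Phlda3) or feed back on p53 itself (Mdm2 and Ccng1). The Gadd45 proteins are small stress-induced partners that activate a kinase of the p38 and JNK pathways and take part in active DNA demethylation, and in neurons Gadd45b and Plk2 are also induced by synaptic activity. MPTP is turned in the brain into an inhibitor of mitochondrial complex I that enters dopaminergic neurons, and p53 has long been studied in the death of these neurons.

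The stretches below lie upstream of the RefSeq starts of these genes in GRCm38.p6 and are shown because they hold the letters that p53 or stress-responsive factors are known to read. They are taken from windows of 250 bases before to 50 after each start (10 windows, since Cdkn1a has a pair), read 5′ to 3′ on the gene's strand, and positions count from the start. Capitals mark a match to the p53 half-site, which 5 of the 10 windows held (5 of the 9 genes), against 8.36% of the 32851 RefSeq promoter windows of the same length.
Trp53 (chr11:69580259-69580318, plus strand, match at -75 to -66): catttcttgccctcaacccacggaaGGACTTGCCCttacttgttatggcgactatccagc
Cdkn1a, upstream start (chr17:29090892-29090951, plus strand, matches at -73 to -64 and -51 to -42): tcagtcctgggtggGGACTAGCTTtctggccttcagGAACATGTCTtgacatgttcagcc
Mdm2 (chr10:117710910-117710969, minus strand, match at -186 to -177): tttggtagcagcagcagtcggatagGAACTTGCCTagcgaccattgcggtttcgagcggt
Ccng1 (chr11:40755437-40755496, minus strand, match at -185 to -176): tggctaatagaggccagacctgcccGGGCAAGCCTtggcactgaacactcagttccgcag
Gadd45a (chr6:67037413-67037472, minus strand, match at -40 to -31): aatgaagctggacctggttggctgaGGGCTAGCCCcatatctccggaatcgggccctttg

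In the windows of the other genes, capitals below mark the cAMP response element TGACGTCA (found in 1.79% of all windows) in Plk2, a letter sequence read by the CREB and ATF factors, and the core promoter motif TATAAA (13.6% of all windows) in Gadd45b and Gadd45g.
Plk2 (chr13:110394956-110395015, plus strand, match at -62 to -55): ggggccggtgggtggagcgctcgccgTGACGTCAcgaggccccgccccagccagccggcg
Gadd45b (chr10:80930018-80930077, plus strand, match at -46 to -41): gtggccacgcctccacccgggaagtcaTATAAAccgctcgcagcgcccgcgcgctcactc
Gadd45g (chr13:51846615-51846674, plus strand, match at -27 to -22): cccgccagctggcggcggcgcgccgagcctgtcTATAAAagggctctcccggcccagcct

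Both strands were searched, no 2 of the marked matches overlap, and TATAAA also matched once in the Trp53 window at -248 to -243. The AP-1 motif TGANTCA (7.81% of all windows) and the CArG box of serum response factor (1.63%) matched in none of the 9 genes, and the E-box CACGTG (7.15%) matched in 3, namely Trp53, Gadd45b and Gadd45g. The Phlda3 window held none of these 6 motifs, but it held the GC box GGGCGG (35.7% of all windows), as did those of Cdkn1a, Mdm2, Gadd45a, Gadd45b and Plk2. The CCAAT box CCAAT (37.4% of all windows) was the eighth motif searched. A match is a description of the letters and not a site of binding. Among all tested genes with a window, the 1063 with a p53 half-site had a median log2 fold change of -0.00 between MPTP and saline, with 529 above 0, against a median of -0.00 over all 12487 genes with a window.

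Libraries held between 54192354 and 78892061 counts. One library, saline 3, stood apart on cell type markers. Its dopaminergic marker score, the mean log2 of CPM (counts scaled to library size) of 20 markers such as Th and Slc6a3, was 7.50, against 8.06 to 8.11 in the other saline libraries and 7.68 to 7.94 in MPTP. Its non-neuronal marker score, the mean of the scores of astrocyte, oligodendrocyte, microglia and endothelial markers, was 3.35, against 2.36 to 2.70 in the other saline libraries and 2.81 to 3.21 in MPTP. All 20 dopaminergic markers passed the low-count filter, and no marker of the other cell type lists was at 0 in every library. Summed over a list, astrocyte markers were at 666 to 737 CPM in MPTP and 579 to 770 CPM in saline, oligodendrocyte markers at 1217 to 1396 and 838 to 1778 CPM, microglia markers at 64.1 to 76.3 and 55.6 to 69.6 CPM, and endothelial markers at 18.6 to 26.9 and 15.3 to 33.5 CPM. In each of these 4 lists saline 3 was the highest saline library, though for microglia markers by very little (69.57 against 69.51 CPM in the next). None of these markers was called with 8 libraries in edgeR. DESeq2 on the same libraries called Cd68, of the microglia list, higher in MPTP and Kcnj6, of the dopaminergic list, lower. Log2 fold changes in edgeR were above 0 for 12 of 12 astrocyte, 11 of 12 oligodendrocyte, 10 of 14 microglia, 5 of 12 endothelial and 3 of 20 dopaminergic markers. Nuclear noncoding RNAs such as Malat1 and Meg3 (7 genes) also set saline 3 apart: their summed level was 3005 CPM there, 894 to 1454 CPM in saline 1, 2 and 4, and 1572 to 2389 CPM with MPTP. Of the 6 tested, 5 had log2 fold changes above 0 with 8 libraries (median 0.41) and 6 without saline 3 (median 0.83), with none called by edgeR in either. Results that rest on saline 3 are therefore given with and without it. In purified bulk RNA, fewer cells of a type and less RNA per cell cannot be told apart.

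None of the 9 genes passed edgeR's quasi-likelihood test between MPTP and saline at an adjusted p of 0.05. Over all 15999 genes tested, 0.106% were called (12 higher, 0.075%, and 5 lower, 0.0313%), so 0 of 9 does not depart from the background. DESeq2 also called none of the 9, where it called 0.339% of 16515 genes (0.151% higher and 0.188% lower). At an unadjusted p under 0.05, 1 of the 9 genes passed in edgeR, against 8.78% of all genes, and it was lower in MPTP, as 4.5% of all genes were. No gene of the 9 had groups that failed to overlap, which 4.19% of all genes tested had. Log2 fold changes (MPTP minus saline) were above 0 for 7 of the 9, against 50.1% of all genes tested, and their median was 0.20, against 0.00 over all genes tested. Of the 9, Cdkn1a had the smallest p, with a log2 fold change of -0.48, and Gadd45b the log2 fold change farthest from 0, at 0.72.

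**Figure D1:**
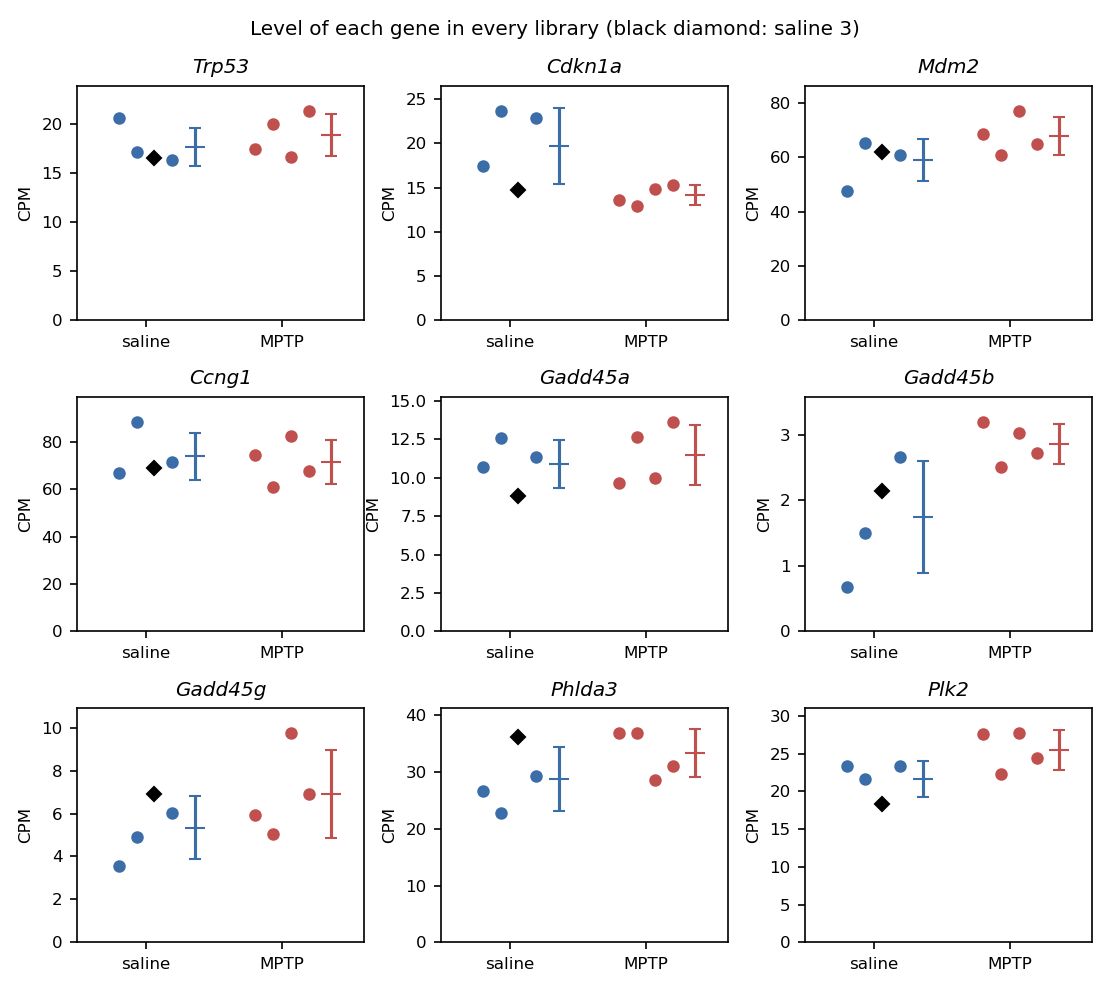
Level of each of the 9 genes (CPM, linear axis from 0) in the 4 saline libraries (blue, with saline 3 as a black diamond) and the 4 MPTP libraries (red), with the group mean and SD drawn to the right of each group's points. The groups overlap in every panel, and in the Cdkn1a panel saline 3 (14.7 CPM) is the 1 saline library inside the MPTP range of 12.9 to 15.3 CPM.

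Trp53 itself lies on chromosome 11 (69580359 to 69591873, plus strand, GRCm38), protein-coding, with no exon shared with another GENCODE gene. A pseudogene of it exists in the annotation, and its share of the Trp53 counts is uncertain and was not tested. Trp53 was at 17.5, 20.1, 16.7 and 21.4 CPM in MPTP libraries 1 to 4 and at 20.6, 17.2, 16.6 and 16.3 CPM in saline libraries 1 to 4. The groups overlapped over most of their ranges. It averaged 18.9 ± 2.18 CPM with MPTP and 17.7 ± 1.98 CPM with saline (SD, n = 4), giving a log2 fold change of 0.10 (SE 0.13, edgeR adjusted p = 0.865). The 95% interval of the fold ran from 0.888 to 1.28. With 1 library left out the log2 fold change ran from 0.034 without MPTP 4 to 0.18 without saline 1. The p53 protein is controlled mainly after translation, and its level was not measured here.

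Mdm2, the ubiquitin ligase that is both the main brake on p53 and a p53 target, lies on chromosome 10 (117688875 to 117710758, minus strand) and shares no exon with another gene. Its level was 68.4, 60.8, 76.9 and 64.8 CPM in MPTP 1 to 4 and 47.5, 65.2, 61.9 and 60.7 CPM in saline 1 to 4. Saline 1 was the lowest library and MPTP 3 the highest, and MPTP 2 and MPTP 4 lay within the saline range. The log2 fold change was 0.20 (SE 0.11, edgeR adjusted p = 0.606), or 1.15-fold, with an interval of 0.984 to 1.35. Without saline 1 the log2 fold change was 0.12.

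Cdkn1a, which encodes the cell cycle inhibitor p21 and is a widely used readout of p53 activity, was the 1 gene of the 9 with an unadjusted p under 0.05. It lies on chromosome 17 (29090976 to 29100727, plus strand), and 273 of its exonic bases (7.68%) are shared with a gene on the other strand. Whether reads of that gene were counted with its own is not known, since no strand setting is given. Its level was 13.6, 12.9, 14.9 and 15.3 CPM in MPTP 1 to 4 and 17.4, 23.6, 14.7 and 22.9 CPM in saline 1 to 4. The MPTP libraries were close together and below each saline library other than saline 3, which lay among them. It averaged 14.1 ± 1.11 CPM with MPTP and 19.7 ± 4.31 CPM with saline (SD, n = 4), giving a log2 fold change of -0.48 (SE 0.15, unadjusted p = 0.00587, edgeR adjusted p = 0.415), or 0.719-fold with an interval of 0.577 to 0.897. Cdkn1a thus did not pass the test over all genes.

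Without saline 3, Cdkn1a did pass: 21.3 ± 3.39 CPM in the remaining saline libraries (SD, n = 3), a log2 fold change of -0.59 (SE 0.14, edgeR adjusted p = 0.0370), with no overlap between the groups. In that comparison 1.84% of 16180 genes were called (0.853% higher and 0.983% lower), and 14.7% had groups that did not overlap. Of the 9 genes, 3 had an unadjusted p under 0.05 without saline 3 (Cdkn1a, Phlda3 and Gadd45b), against 16.9% of all genes, and 1 of them had a negative log2 fold change, against 8.25%. Log2 fold changes were above 0 for 6 of the 9, against 51.2%. The level of Cdkn1a was set beside the marker scores of the libraries, and no association was tested. The 3 saline libraries with the lowest non-neuronal scores (2.36, 2.46 and 2.70) had the highest Cdkn1a levels, and the same 3 had the highest dopaminergic scores. Saline 3 had the lowest dopaminergic score (7.50) and the highest non-neuronal score (3.35). Its Cdkn1a level (14.7 CPM) was above those of MPTP 1 and MPTP 2 (13.6 and 12.9 CPM) and below those of MPTP 3 and MPTP 4 (14.9 and 15.3 CPM). In a fit that also held the non-neuronal score, the log2 fold change of Cdkn1a was -0.27 (edgeR adjusted p = 0.716). Whether marker content accounts for the Cdkn1a difference was not tested.

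**Figure D2:**
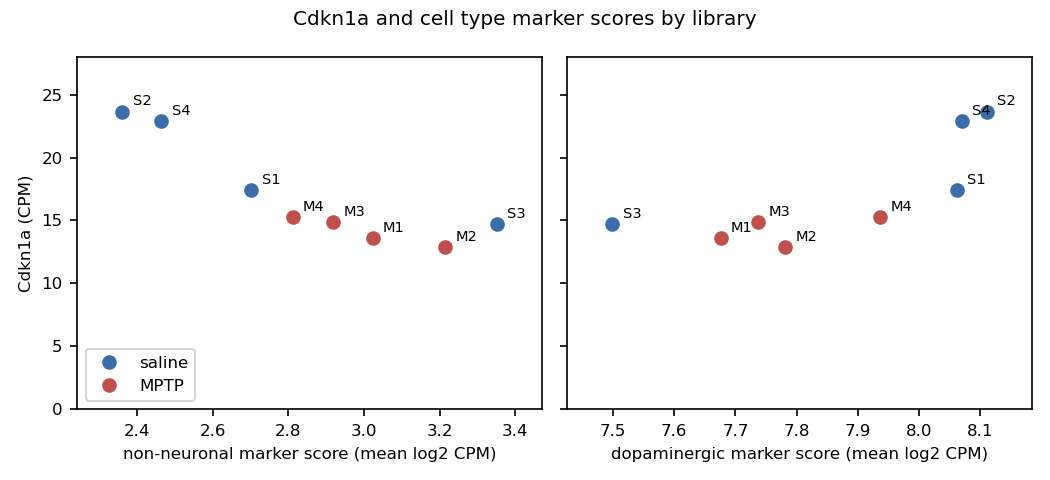
Cdkn1a level (CPM, axis from 0) in each library against the non-neuronal marker score (left) and the dopaminergic marker score (right), both as mean log2 CPM, with saline libraries S1 to S4 in blue and MPTP libraries M1 to M4 in red. S1, S2 and S4 lie apart at 17.4 to 23.6 CPM with high dopaminergic scores, while S3, at 14.7 CPM, lies with or beyond the MPTP libraries on both scores.

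Ccng1, the cyclin G1 gene, a p53 target whose product acts with a phosphatase on Mdm2, lies on chromosome 11 (40748552 to 40755311, minus strand). It was at 74.4, 60.8, 82.3 and 67.7 CPM in MPTP 1 to 4 and at 66.9, 88.2, 68.7 and 71.3 CPM in saline 1 to 4. Each group held 1 high library, MPTP 3 and saline 2, and the others overlapped. The log2 fold change was -0.05 (SE 0.11, edgeR adjusted p = 0.928), and the interval of the fold was 0.823 to 1.14. Leaving out MPTP 2 or saline 2 turned its sign, at 0.020 and 0.049.

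Phlda3, a p53 target whose protein competes with the survival kinase Akt for membrane lipids, lies on chromosome 1 (135766119 to 135769136, plus strand). It was at 36.8, 36.8, 28.6 and 31.0 CPM in MPTP 1 to 4 and at 26.7, 22.7, 36.1 and 29.2 CPM in saline 1 to 4. Here saline 3 was the highest saline library and lay at the level of the 2 highest MPTP libraries. The log2 fold change was 0.22 (SE 0.13, edgeR adjusted p = 0.671), and without saline 3 it was 0.35 (SE 0.12, unadjusted p = 0.0122, edgeR adjusted p = 0.166). In the fit with the non-neuronal score it was 0.07 (edgeR adjusted p = 0.949).

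The 3 Gadd45 genes had different levels and spreads. Gadd45a, the family member that p53 induces directly, lies on chromosome 6 (67035096 to 67037457, minus strand), and 337 of its exonic bases (19.1%) are shared with the noncoding gene E230016M11Rik on the other strand. It was at 9.68, 12.6, 9.96 and 13.6 CPM in MPTP 1 to 4 and at 10.7, 12.6, 8.83 and 11.3 CPM in saline 1 to 4. The groups overlapped over most of their ranges, with a log2 fold change of 0.08 (SE 0.16, edgeR adjusted p = 0.921) and an interval of 0.834 to 1.34-fold. The sign turned without MPTP 4 (-0.011) and without saline 3 (-0.0081).

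Gadd45b, the member known as an activity-induced gene of neurons, lies on chromosome 10 (80930073 to 80932204, plus strand). It was the least abundant of the 9, with 262, 181, 205 and 205 counts in MPTP 1 to 4 and 44, 100, 135 and 140 counts in saline 1 to 4. On the CPM scale these were 3.19, 2.51, 3.03 and 2.72 in MPTP and 0.673, 1.50, 2.14 and 2.66 in saline. The MPTP libraries were tightly grouped, whereas the saline libraries were spread widely, and saline 4 reached the MPTP range. It averaged 2.86 ± 0.310 CPM with MPTP and 1.74 ± 0.859 CPM with saline (SD, n = 4), giving a log2 fold change of 0.72 (SE 0.36, unadjusted p = 0.0623, edgeR adjusted p = 0.595), or 1.65-fold with an interval of 0.972 to 2.79. Without saline 3 the log2 fold change was 0.84 (unadjusted p = 0.0452, edgeR adjusted p = 0.284). Leaving out 1 library at a time, the log2 fold change ranged from 0.45 without saline 1 to 1.00 without saline 4.

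Gadd45g, the third member, lies on chromosome 13 (51846678 to 51848468, plus strand). It was at 5.94, 5.05, 9.74 and 6.90 CPM in MPTP 1 to 4 and at 3.55, 4.91, 6.91 and 6.01 CPM in saline 1 to 4. MPTP 3 was the highest library and saline 1 the lowest, and the remaining 6 overlapped. The log2 fold change was 0.37 (SE 0.24, edgeR adjusted p = 0.689). It was 0.16 without MPTP 3 and 0.52 without saline 3. Saline 1 was the lowest library for both Gadd45b and Gadd45g, as it was for Mdm2.

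Plk2, a polo-like kinase that is induced by p53 and by synaptic activity, lies on chromosome 13 (110395046 to 110400844, plus strand). It was at 27.6, 22.3, 27.7 and 24.4 CPM in MPTP 1 to 4 and at 23.4, 21.6, 18.4 and 23.3 CPM in saline 1 to 4. Only MPTP 2 lay within the saline range. It averaged 25.5 ± 2.64 CPM with MPTP and 21.7 ± 2.35 CPM with saline (SD, n = 4), giving a log2 fold change of 0.24 (SE 0.12, unadjusted p = 0.0610, edgeR adjusted p = 0.593), or 1.18-fold with an interval of 0.991 to 1.40. For Plk2, in contrast to Phlda3, saline 3 was the lowest library, and without it the log2 fold change was 0.17.

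**Figure D3:**
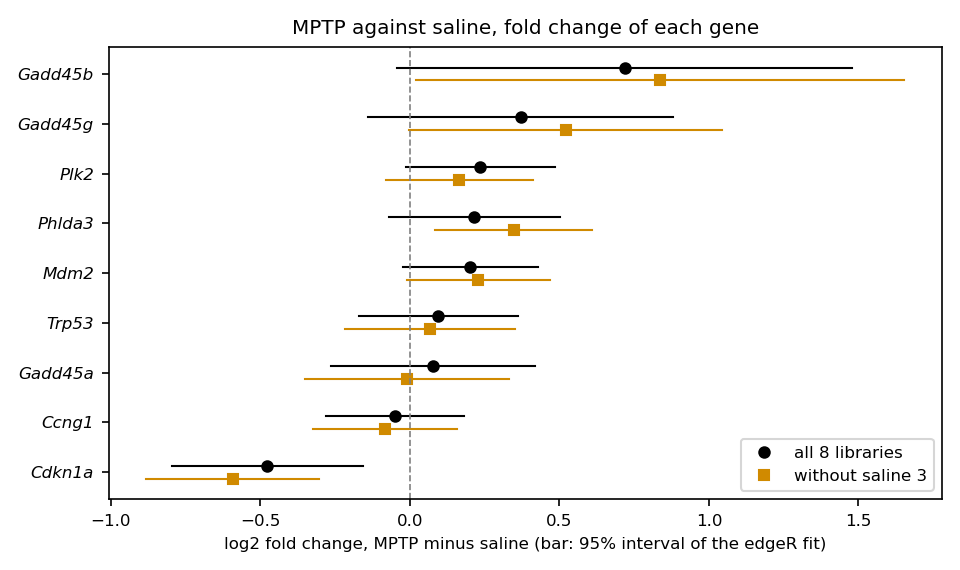
Log2 fold change (MPTP minus saline) of each gene with its 95% interval from the edgeR fit, for all 8 libraries (black circles) and without saline 3 (orange squares). With 8 libraries the interval lies wholly below 0 for Cdkn1a (-0.79 to -0.16) and includes 0 for the other 8 genes.

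Compared per kilobase of exon, which allows levels of different genes to be set side by side, Ccng1 was the most abundant in saline at 21.0 ± 2.79 CPM per kilobase, followed by Phlda3 at 18.4 ± 3.61 and Mdm2 at 11.6 ± 1.52 (SD, n = 4 each). Ccng1 and Phlda3 overlapped between libraries, whereas Mdm2 lay below both in every saline library. Gadd45a (6.16), Cdkn1a (5.54), Plk2 (4.82), Gadd45g (4.55) and Trp53 (4.38) followed as mean CPM per kilobase in saline, each overlapping with its neighbour in this order. Gadd45b, at 1.10 ± 0.541 CPM per kilobase, lay below all of the others in every saline library. In MPTP the mean level of Phlda3 (21.4) was just above that of Ccng1 (20.3), and Cdkn1a (3.98 ± 0.313) stood below Trp53 (4.68 ± 0.539) in mean CPM per kilobase. Phlda3 overlapped with Ccng1, and Cdkn1a with Trp53, between MPTP libraries. Exonic lengths are those of all GENCODE exons of a gene and may differ from the transcripts used in these neurons.

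**Figure D4:**
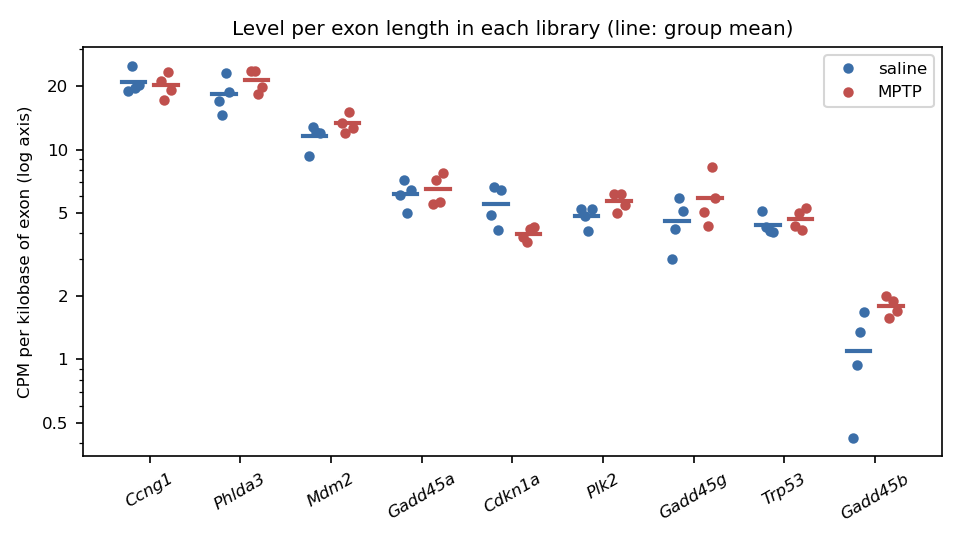
Level of the 9 genes in CPM per kilobase of exon (log axis) in each saline (blue) and MPTP (red) library, ordered by the saline mean, with lines at the group means. Ccng1, Phlda3 and Mdm2 form the upper end at 11.6 to 21.0 in the saline means, and Gadd45b the lower end at 1.10.

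Of 13 paralogs of the 9 genes, 12 were tested and none was called, with 5 above 0 and a median log2 fold change of -0.01. Mdm4, which binds and inhibits p53 together with Mdm2, had a log2 fold change of -0.05 (SE 0.09, edgeR adjusted p = 0.914). Its mean level in saline was 72.3 CPM, above the 58.8 CPM of Mdm2. Per kilobase of exon it was 4.89 CPM, below the 11.6 of Mdm2. The order thus depends on the exonic lengths used, 14798 bases for Mdm4 and 5083 for Mdm2. The p53 relatives Trp63 and Trp73 were near the lower limit, at 0.998 and 0.514 CPM on average in saline, with log2 fold changes of -0.06 and -1.13 (edgeR adjusted p = 0.986 and 0.648). The p21 relative Cdkn1b averaged 26.5 ± 1.33 CPM across MPTP libraries and 26.3 ± 1.08 CPM across saline libraries (SD, n = 4), and Cdkn1c was at 0.884 and 0.862 CPM on average. Cdkn1b had a log2 fold change of 0.01 (SE 0.10). Its difference from the log2 fold change of Cdkn1a was not tested.

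Among the other polo-like kinases, Plk3, a stress-induced relative of Plk2, averaged 22.1 ± 2.22 CPM across MPTP libraries and 17.6 ± 2.99 CPM across saline libraries (SD, n = 4), giving a log2 fold change of 0.32 (SE 0.14, unadjusted p = 0.0304, edgeR adjusted p = 0.508), which was 0.21 without saline 1. Plk1 (-0.02), Plk4 (0.00) and Plk5 (-0.08) had log2 fold changes near 0. The cyclin relatives Ccng2 (-0.18) and Ccni (-0.00) and the Phlda3 relative Phlda1 (0.13) did not pass either. Phlda2 had no count in any library.

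Of 40 further p53 target genes, 39 were tested and none was called. Log2 fold changes were above 0 for 20 of them, with a median of 0.01. The genes with the smallest p pointed in both directions. Tigar, a regulator of glycolysis, averaged 96.5 ± 6.72 CPM across MPTP libraries and 123 ± 18.8 CPM across saline libraries (SD, n = 4), giving a log2 fold change of -0.35 (SE 0.11, edgeR adjusted p = 0.415). The cell cycle gene Rprm (0.87, edgeR adjusted p = 0.415), the pro-apoptotic BH3-only gene Bbc3, also known as Puma (0.81, edgeR adjusted p = 0.545), and the receptor gene Notch1 (0.56, edgeR adjusted p = 0.620) had positive log2 fold changes at low levels. Bbc3 averaged 2.23 ± 1.00 CPM across MPTP libraries and 1.28 ± 0.191 CPM across saline libraries (SD, n = 4), and its log2 fold change was 0.47 without MPTP 4. Without saline 3, Tigar was lower (log2 fold change -0.45, edgeR adjusted p = 0.0144), as Cdkn1a was, and it was the 1 gene of this list called there.

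Regulators of p53 (24 of 25 tested, 13 above 0, median log2 fold change 0.04) also held no called gene. The 4 with the smallest p were the p53-binding Ppp1r13l (0.62) and Ppp1r13b (0.14), the deubiquitinase gene Usp7 (-0.12) and the acetyltransferase gene Ep300 (0.11), with edgeR adjusted p values of 0.648, 0.695, 0.707 and 0.731.

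Genes that sense DNA damage and signal to the checkpoint had 7 of 23 tested log2 fold changes above 0 and a median of -0.06, with none called. Topbp1, an activator of Atr, averaged 10.5 ± 1.58 CPM across MPTP libraries and 13.6 ± 0.606 CPM across saline libraries (SD, n = 4), giving a log2 fold change of -0.37 (SE 0.14, edgeR adjusted p = 0.490). Mre11a, a nuclease of the complex that recruits Atm, had -0.25 (edgeR adjusted p = 0.554), Atm itself -0.25 (edgeR adjusted p = 0.606) and the ubiquitin ligase gene Rnf168 -0.18 (edgeR adjusted p = 0.645). The groups did not overlap for Topbp1 and Mre11a, which 4.19% of all genes tested shared.

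The repair lists were centred near 0. Base excision and single-strand break repair, the pathway for oxidised bases, had 13 of 24 tested genes above 0 (median log2 fold change 0.07), with Lig1 (0.32), Neil1 (0.69), Mbd4 (0.40) and Aplf (-0.33) at the smallest p. Nucleotide excision repair had 9 of 23 above 0 (median -0.04), with Ddb1 (-0.33), Rad23b (-0.16) and Ercc4 (-0.22) first. Double-strand break repair had 12 of 24 above 0 (median -0.01), with Polm (0.48), Palb2 (-0.28), Exo1 (-1.11) and Rad51b (-1.04) first, the last 2 of them below 2 CPM on average. Without saline 1 the log2 fold change of Rad51b was -0.35, and without MPTP 2 that of Mbd4 was 0.19. No gene of these 3 lists was called with 8 libraries, and the smallest edgeR adjusted p among those named was 0.475, for Polm. Without saline 3, Ddb1, a damage-binding subunit of a ubiquitin ligase, was lower (log2 fold change -0.47, edgeR adjusted p = 0.0189).

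**Figure D5:**
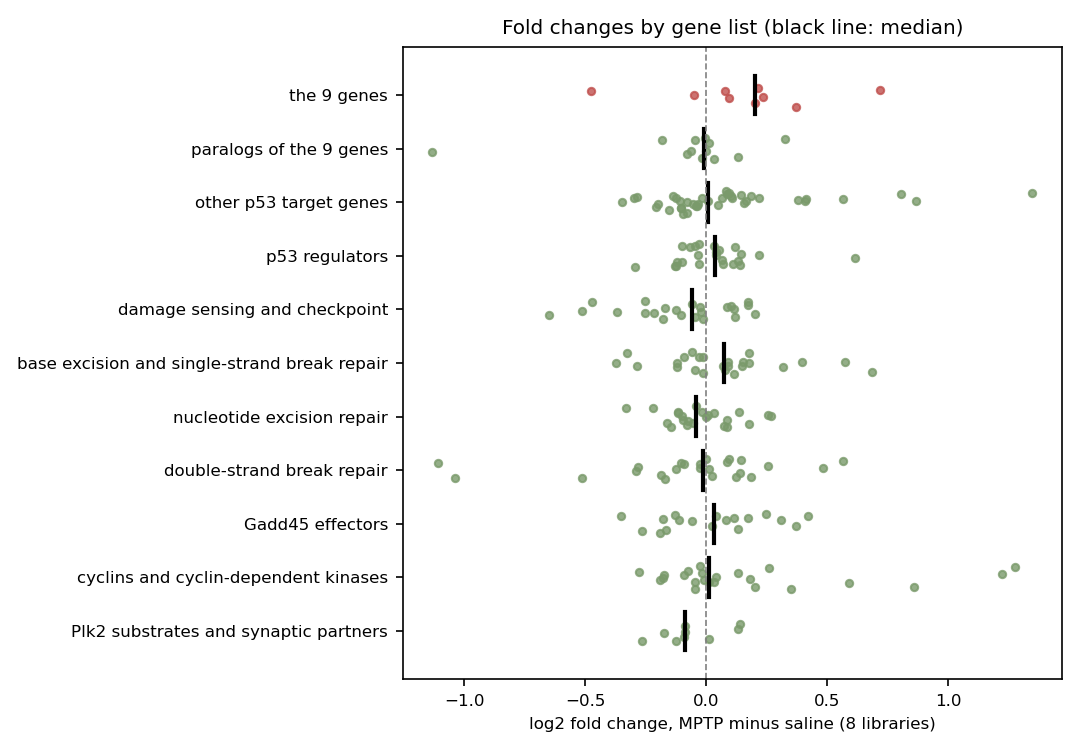
Log2 fold changes (MPTP minus saline, all 8 libraries) of the tested genes of each list, 1 point per gene, with a black line at the list median and vertical scatter only for legibility. The 9 genes (red) have a median of 0.20, and the medians of the other lists lie between -0.09 and 0.07.

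Effectors of the Gadd45 proteins had 10 of 18 genes above 0 (median log2 fold change 0.03) and none called. An unadjusted p under 0.05 in edgeR was found for 5 of 18 (3 higher and 2 lower in MPTP), against 8.78% of all genes tested. The other pathway lists held from 0 such genes (as in the 24 tested p53 regulators) to 3 (in the 39 tested further p53 targets). The stress kinase gene Mapk9 (JNK2) averaged 480 ± 35.0 CPM across MPTP libraries and 611 ± 69.2 CPM across saline libraries (SD, n = 4). Its log2 fold change was -0.35 (SE 0.10, edgeR adjusted p = 0.355), and its groups did not overlap, as in 4.19% of all genes tested. It was lower without saline 3 (-0.42, edgeR adjusted p = 0.0216). The 3 methylcytosine dioxygenase genes, whose products start active DNA demethylation, had positive log2 fold changes of 0.42 for Tet2 (edgeR adjusted p = 0.429), 0.37 for Tet3 (edgeR adjusted p = 0.491) and 0.31 for Tet1 (edgeR adjusted p = 0.556), and their groups overlapped.

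Substrates and synaptic partners of Plk2 had 3 of 9 tested genes above 0 (median log2 fold change -0.09). The vesicle fusion ATPase gene Nsf had -0.17 (edgeR adjusted p = 0.558) with no overlap between the groups, as in 4.19% of all genes tested. Sipa1l1 and Rasgrf1, regulators of small GTPases that Plk2 targets at synapses, had 0.14 and 0.13 (edgeR adjusted p = 0.686 and 0.762).

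Over the 9 genes, their paralogs, these lists and a list of cyclins and cyclin-dependent kinases together, which held 216 tested genes, none was called, and 15 (6.94%) had an unadjusted p under 0.05, against 8.78% of all genes tested. Without saline 3, 4 of 217 (1.84%) were called, all of them lower in MPTP: Cdkn1a, Tigar, Ddb1 and Mapk9. That share equals the 1.84% called over all genes in either direction in that comparison, where 0.983% were lower and 0.853% higher. In the same comparison the dopaminergic marker genes Slc6a3, Ddc, Aldh1a1 and Kcnj6 were called lower, and 10 astrocyte, oligodendrocyte and microglia markers were called higher. The summed level of the 20 dopaminergic markers was 10792 to 12833 CPM in MPTP, 9661 CPM in saline 3 and 14875 to 15875 CPM in the other saline libraries. The part of marker content and of nuclear RNA in the 4 calls was not tested.

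The genes whose level followed each of the 9 most closely over the 8 libraries were found by Pearson's r of log2 CPM among 9798 abundant genes, as a description of 8 points that share depth and marker content. For Cdkn1a these were Fam210b (r = 0.985) and Gsg1l (r = 0.984), for Trp53 they were Mms19 and Mgrn1 (both r = 0.966), and for Mdm2 Ergic3 and Ncan (both r = 0.973). Ccng1 was followed by Cct5 (r = 0.991) and Cmas (r = 0.988), and Phlda3 by Kmt2d (r = 0.989) and Slc20a2 (r = 0.976). For the Gadd45 genes the closest were Degs1 (r = 0.962) and Drosha (r = 0.946) with Gadd45a, AI414108 (r = 0.955) and Slc48a1 (r = 0.953) with Gadd45b, and Bbs2 (r = 0.964) and Rin2 (r = 0.957) with Gadd45g. Plk2 was followed by Trmt2a (r = 0.964) and Rnh1 (r = 0.928). The 9 genes had no closest gene in common.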

How the data were processed

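The values are raw gene counts, deposited by the authors as 1 table of 8 library columns, each matched to a sample by its title. TopHat2 2.0.8 and the mm10 build are named in the submitters' processing notes. The sources used here give no counting tool, annotation or strand setting. One list gene was found by its RefSeq synonym (Tigar). Some list genes are not reported here. No pair of libraries in a group agreed within sampling noise.

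Counts were analysed with edgeR 4.0.16 in R 4.3.3 (TMM scaling, filterByExpr by group, robust quasi-likelihood F-test, Benjamini-Hochberg adjustment over all genes tested, threshold 0.05). The SE was derived from F and the log2 fold change. CPM use the TMM-scaled library size, and log2 CPM a prior count of 2. The test was checked on simulated counts, where it recovered 48% of 1.5-fold changes and 80% of 2-fold changes. The simulation held no library set apart like saline 3, so these shares may not hold for the real libraries. Alternatives were other scalings and filters, the replicate block, a non-neuronal covariate, each library left out, DESeq2 1.42.0 and limma 3.58.1 voom. The genes and lists were chosen with earlier results of these data known. Named genes are the 9, their paralogs, up to 4 per list with the smallest p, the called genes, and the 2 most alike in pattern (mean log2 CPM of at least 3). Genes called only without saline 3 were also named. Positions are from GENCODE vM21 (GRCm38), promoters from RefSeq (GRCm38.p6).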

Additional observations from a re-analysis of the deposited data

Results flagged for a closer look

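The dopaminergic marker score of saline 3, 7.50 as mean log2 CPM, lay far from those of the other 3 saline libraries (8.06 to 8.11). The gap to the nearest of them was 0.920 of the whole range of the group. This was 1 of 22 sets of 4 values examined in this way (the 9 genes and the pair of marker scores in each group), of which chance marks about 1 in 20. Neither the non-neuronal score nor any of the 9 genes had a library that stood apart by the same measure.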

How the results depend on the processing

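Of 143 values of the 9 genes under the alternatives, 137 kept their direction and stayed uncalled. Cdkn1a was called in 1, without saline 3, and its log2 fold change ranged from -0.59 to -0.37 with 1 library left out. The sign of Ccng1 changed with the non-neuronal covariate (0.030, edgeR adjusted p = 0.980), and leaving out libraries gave Ccng1 -0.12 to 0.049 and Gadd45a -0.011 to 0.16. Gadd45b was not tested at a mean CPM of at least 5. The number of called genes, over all genes, was 7 called higher (12 in the reported test) at a mean CPM of at least 5, where 11347 genes were tested, and 25 higher and 31 lower with DESeq2 (the cause was not tested). With 1 library left out it ran from 8 to 138 higher and from 0 to 159 lower, the highest without saline 3, and the list genes called lower from 0 to 4. The number called lower, 5 with all libraries, was 1 without MPTP 2, 2 without MPTP 3, 0 without MPTP 4 or saline 1, and 3 without saline 2 or saline 4. List medians ranged with 1 library left out from 0.0067 to 0.094 for base excision repair, from -0.098 to 0.059 for double-strand break repair and from -0.13 to -0.017 for Plk2 partners. The non-neuronal score difference, 0.27 with all libraries (exact permutation p = 0.286), ranged from 0.15 to 0.48 with 1 library left out. The value of 0.48, without saline 3, had an exact permutation p = 0.0286, the smallest that 35 splits can give. Saline 3 was singled out on these marker scores, so that p-value is no independent test of them. The dopaminergic score difference was -0.15 (exact permutation p = 0.400) and ranged from -0.30 to -0.09 with 1 library left out.

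With the replicate number as a block, 10 genes were called higher and 4 lower, and Cdkn1a had a log2 fold change of -0.45 (edgeR adjusted p = 0.661). The block changed no call among the 9. Same-numbered libraries did not deviate together (correlations of deviations from -0.12 to 0.04), and none of the 4 MPTP libraries correlated best with its own number, so the numbers were not used as pairs.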

Other observations

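Plk1, the mitotic relative of Plk2, was at 151 to 183 CPM over the 8 libraries, 75.6 CPM per kilobase of exon on average and above each of the 9 genes. Of 6 other genes of dividing cells examined, 4 were near the lower limit in the same libraries: Mki67 was at 0.133 to 0.636 CPM, Cdk1 at 0 to 0.270 CPM, Ccnb1 at 0.0571 to 0.443 CPM and Ccnb2 at 0.0444 to 1.48 CPM. The other two were higher. Cdc25c was at 2.90 to 3.87 CPM, and 623 of its exonic bases (12.7%) are shared with a gene on the other strand. Ccna2 was at 4.60 to 8.73 CPM, and 510 of its exonic bases (12.5%) are shared with Exosc9 on the other strand. Plk1 lies on chromosome 7 (122159439 to 122169873, plus strand) and shares 156 exonic bases (7.09%) with a gene model on the other strand. These genes were set beside Plk1 after its level was seen.

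The list of cyclins and cyclin-dependent kinases had 12 of 23 tested genes above 0 (median log2 fold change 0.01) and none called. Rb1, the retinoblastoma gene, had a log2 fold change of -0.18 (edgeR adjusted p = 0.601) and Pcna, the replication clamp gene, one of -0.19 (edgeR adjusted p = 0.670). In both the groups did not overlap, as in 4.19% of all genes tested. Ccnb1 (1.28) and Cdk2 (1.22) had positive log2 fold changes at mean levels under 1 CPM, with edgeR adjusted p values of 0.695 and 0.730. Without MPTP 2, which held 86 of the Cdk2 counts against 6 to 26 in the other MPTP libraries, the log2 fold change of Cdk2 was 0.082 and that of Ccnb1 was 0.73.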
